A study of Homo sapiens with 9 samples.

Results

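The GADD45 genes and the genes of the cyclin-dependent kinase (CDK) inhibitors were described in MDA-MB-231, a long-established line from a human triple-negative breast tumour, in cells that expressed a nonspecific (NS) shRNA, ASAH1 shRNA #1 or ASAH1 shRNA #2. ASAH1 encodes acid ceramidase, the lysosomal enzyme that hydrolyses ceramide. Each of the 3 groups held 3 libraries, and the cells of every group grew in DMEM with fetal bovine serum and expressed their shRNA stably. The members were chosen by gene family, as the 3 GADD45 genes and the 7 CDK inhibitor genes, around GADD45A, which was known from these same libraries to have one of the highest mean changes against NS shRNA. All 10 members were found by symbol among the 26485 genes of both tables, each of which pairs one hairpin with the NS shRNA group. Since the choice used the change against NS shRNA, that change is given here as a description. Calls of members on it are counted below and carry no weight as a result. The difference between the hairpins, which the choice did not use, is the difference that was tested.

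GADD45 proteins are small acidic proteins named for growth arrest and DNA damage. They have no enzyme activity and act by binding partners, among them the kinase MAP3K4 upstream of p38 and JNK, the replication clamp PCNA, and the CDK1-cyclin B1 complex of mitotic entry. CDK inhibitors fall into the CIP/KIP proteins, which bind cyclin-CDK complexes (p21, p27 and p57, from CDKN1A, CDKN1B and CDKN1C), and the INK4 proteins, which bind CDK4 and CDK6 (p16, p15, p18 and p19, from CDKN2A, CDKN2B, CDKN2C and CDKN2D). MDA-MB-231 cells are known to have lost CDKN2A.

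The reads on genes ran from 23806003 to 49659106 per library, with group medians of 32929801 (NS shRNA), 33286543 (shRNA #1) and 39141363 (shRNA #2). ASAH1, the target of the hairpins, had 135 ± 1.24 CPM (the reads-per-million unit, scaled by TMM over all 9 libraries) with NS shRNA, 40.2 ± 1.55 with shRNA #1 and 21.7 ± 0.667 with shRNA #2 (SD, n = 3 each). Against NS shRNA this was a log2 fold change of -1.76 for shRNA #1 (limma, adjusted p = 9.49e-09) and of -2.63 for shRNA #2 (limma, adjusted p = 5.42e-10), and shRNA #2 lay below shRNA #1 by 0.89 on the log2 scale (log2 ratio -0.89, adjusted p = 6.85e-08 from edgeR). The line's own genes VIM, CD44, AXL and CAV1 had 701 to 2080 CPM over the 9 libraries, and KRT8, KRT18 and EGFR had 84.2 to 447. Some of these genes also moved with the groups. Their log2 fold changes against NS shRNA were -1.5 and -0.77 for KRT8 and -0.78 and 0.15 for KRT18 (shRNA #1 and shRNA #2). For EGFR they were 1.18 and 1.29, for CAV1 -0.64 and -0.36 and for VIM -0.27 and -0.67. For AXL they were 0.38 and 0.24, and for CD44 -0.02 and -0.13. ESR1 and PGR, the hormone receptor genes that the line lacks, had at most 2 reads. ERBB2, the HER2 gene, which is not amplified in the line, had 59 to 102 CPM. PTPRC, CD3E, CDH5 and DCN, markers of leukocytes, endothelium and fibroblasts, had at most 8, 3, 3 and 3 reads. CD68, PECAM1, COL1A1, COL1A2 and LUM, the other markers of those cell types, were detected at 0.926 to 97.7 CPM and moved with the groups. Against NS shRNA their log2 fold changes were 0.29 and -1.38 for CD68, -0.59 and -0.91 for PECAM1, 0.18 and -0.24 for COL1A1, -1.48 and 0.31 for COL1A2 and -0.43 and -1.76 for LUM (shRNA #1 and shRNA #2), with an adjusted p below 0.05 from limma for all but COL1A1. Their part in the results was not tested. RNA was taken in bulk, so that fewer cells of a state and less RNA per cell cannot be told apart. Nothing in the labels says that the replicates came from separate cultures, and p-values measure only the spread between these libraries.

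The RefSeq sequence tables hold 250 bases upstream of 11 transcript starts of 8 members. They hold none for GADD45A and CDKN1C, which were not searched for matches. The stretches printed here belong to CDKN1A, which was higher with both hairpins, to CDKN2C, which was lower with both, and to GADD45B and GADD45G, the family members whose levels did not follow GADD45A. Sequences run 5′ to 3′ on the strand of the gene and end at the base before the transcript start. Capitals mark matches, on either strand, to the GC box (GGGCGG), the TATA box (TATAAA) or the core of the amino acid response element (TGATGNAA).
CDKN1A, GRCh38.p14 chr6:36678464-36678713, plus strand: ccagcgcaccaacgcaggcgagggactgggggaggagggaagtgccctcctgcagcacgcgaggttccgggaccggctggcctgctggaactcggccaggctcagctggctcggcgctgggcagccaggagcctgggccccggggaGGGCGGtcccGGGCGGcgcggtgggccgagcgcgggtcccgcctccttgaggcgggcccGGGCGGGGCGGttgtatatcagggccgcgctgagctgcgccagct
CDKN2C, GRCh38.p14 chr1:50968456-50968705, plus strand, the start with the most matches of its 3: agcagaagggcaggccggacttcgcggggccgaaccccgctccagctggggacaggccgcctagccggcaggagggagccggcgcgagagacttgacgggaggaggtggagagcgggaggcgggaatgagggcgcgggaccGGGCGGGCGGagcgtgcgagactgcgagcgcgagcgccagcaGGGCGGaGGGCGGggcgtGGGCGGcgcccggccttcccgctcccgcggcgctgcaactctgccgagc
GADD45B, GRCh38.p14 chr19:2475877-2476126, plus strand: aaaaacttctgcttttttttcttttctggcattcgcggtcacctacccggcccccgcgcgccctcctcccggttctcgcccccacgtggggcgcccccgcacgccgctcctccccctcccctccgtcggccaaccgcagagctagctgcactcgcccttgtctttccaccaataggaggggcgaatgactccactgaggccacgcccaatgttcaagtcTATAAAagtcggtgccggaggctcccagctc
GADD45G, GRCh38.p14 chr9:89604762-89605011, plus strand: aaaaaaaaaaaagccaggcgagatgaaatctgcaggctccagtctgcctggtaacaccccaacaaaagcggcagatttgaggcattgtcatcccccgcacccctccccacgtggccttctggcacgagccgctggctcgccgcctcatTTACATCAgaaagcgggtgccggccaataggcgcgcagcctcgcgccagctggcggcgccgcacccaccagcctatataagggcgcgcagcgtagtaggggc

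The stretch before CDKN1A was 76.4% G and C and held 4 GC boxes, of which the 2 nearest the start share a base. The stretch before CDKN2C held 5, of which the farthest pair overlap. Of 35116 upstream stretches of the same length, 42.6% held at least 1 GC box, 10.7% a TATA box and 3.1% the amino acid response core. Upstream of GADD45B no GC box was found, and a TATA box began 31 bases before the start. Upstream of GADD45G the only match was an amino acid response core on the opposite strand, 102 bases before the start. The remaining stretches held 2 GC boxes for CDKN2B, 2 for CDKN2D, 1 for CDKN1B, 1 and 0 for the 2 starts of CDKN2A, and 0 and 1 for the other starts of CDKN2C. A match describes letters and is no evidence of a bound factor.

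Levels are given as CPM on this scale. Changes against NS shRNA are log2 fold changes from limma on log2(normalized count + 1) within the table that holds both groups, with their standard errors (SE). Differences between hairpins are log2 ratios of shRNA #2 to shRNA #1 from edgeR on the reads of all 9 libraries, with Benjamini-Hochberg adjusted p-values over all genes tested.

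GADD45A, the DNA damage-inducible founder of the family (chr1:67685201-67688334, plus strand, hg38), was higher with both hairpins. It had 60.8, 54.7 and 47.8 CPM in NS shRNA replicates 1 to 3, 413, 451 and 525 with shRNA #1, and 397, 352 and 444 with shRNA #2. Every hairpin library lay far above every NS shRNA library, and the libraries of the hairpins overlapped each other. On the log2 scale GADD45A was 3.08 higher with shRNA #1 (SE 0.10, 8.45-fold) and 2.87 higher with shRNA #2 (SE 0.10, 7.33-fold). Both values rest on the same 3 NS shRNA libraries, here and for the other members. The hairpins were not told apart for GADD45A, with a log2 ratio of -0.22 and a 95% interval from -0.45 to 0.02 (adjusted p = 0.0938 from edgeR). That ratio passed the threshold under 3 of its alternatives, under upper quartile scaling (-0.29, adjusted p = 0.0335 from edgeR), without shRNA #1 replicate 1 (-0.29, adjusted p = 0.0389) and without shRNA #2 replicate 3 (-0.30, adjusted p = 0.0346).

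GADD45B, a family member known to respond to TGF-beta and NF-kappaB signalling (chr19:2476122-2478259, plus strand), stayed near its NS shRNA level. It had 60.6, 60.9 and 51.4 CPM with NS shRNA, 55.6, 53.8 and 61.2 with shRNA #1, and 67.8, 59.4 and 74 with shRNA #2. All 3 groups overlapped. Its log2 fold changes were -0.03 (SE 0.08, shRNA #1) and 0.22 (SE 0.09, shRNA #2). Between the hairpins the log2 ratio was 0.24 (95% interval 0.04 to 0.44, adjusted p = 0.0365 from edgeR). This call ended under upper quartile scaling (0.16, adjusted p = 0.138 from edgeR) and without shRNA #1 replicate 1, shRNA #1 replicate 2, shRNA #2 replicate 1 or shRNA #2 replicate 3 (adjusted p = 0.0876, 0.129, 0.0883 and 0.142).

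GADD45G (chr9:89605012-89606555, plus strand) was scarce, with 6 to 42 reads in a library. It had 0.663, 0.593 and 0.332 CPM with NS shRNA, 0.243, 0.242 and 0.321 with shRNA #1, and 1.02, 0.974 and 0.904 with shRNA #2. The libraries of shRNA #1 lay just below those of NS shRNA and those of shRNA #2 above them. Against NS shRNA its log2 fold changes were -0.87 (SE 0.35, shRNA #1) and 0.89 (SE 0.29, shRNA #2). GADD45G was therefore the member whose difference from NS shRNA had opposite signs with the hairpins and a size of more than 0.5 with each. In the comparison of shRNA #1, GADD45G passed the filter on low values through NS shRNA, with a normalized mean of 17.6 beside 8.87. Adding 5 in place of 1 to each normalized count gave -0.67 there. It was 3.54-fold higher with shRNA #2 than with shRNA #1 (log2 ratio 1.82, 95% interval 1.18 to 2.47, adjusted p = 0.000218 from edgeR). NS shRNA replicate 3 was the lowest of its group for all 3 GADD45 genes, and without it the GADD45G changes were -1.15 and 0.60.

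**Figure D1:**
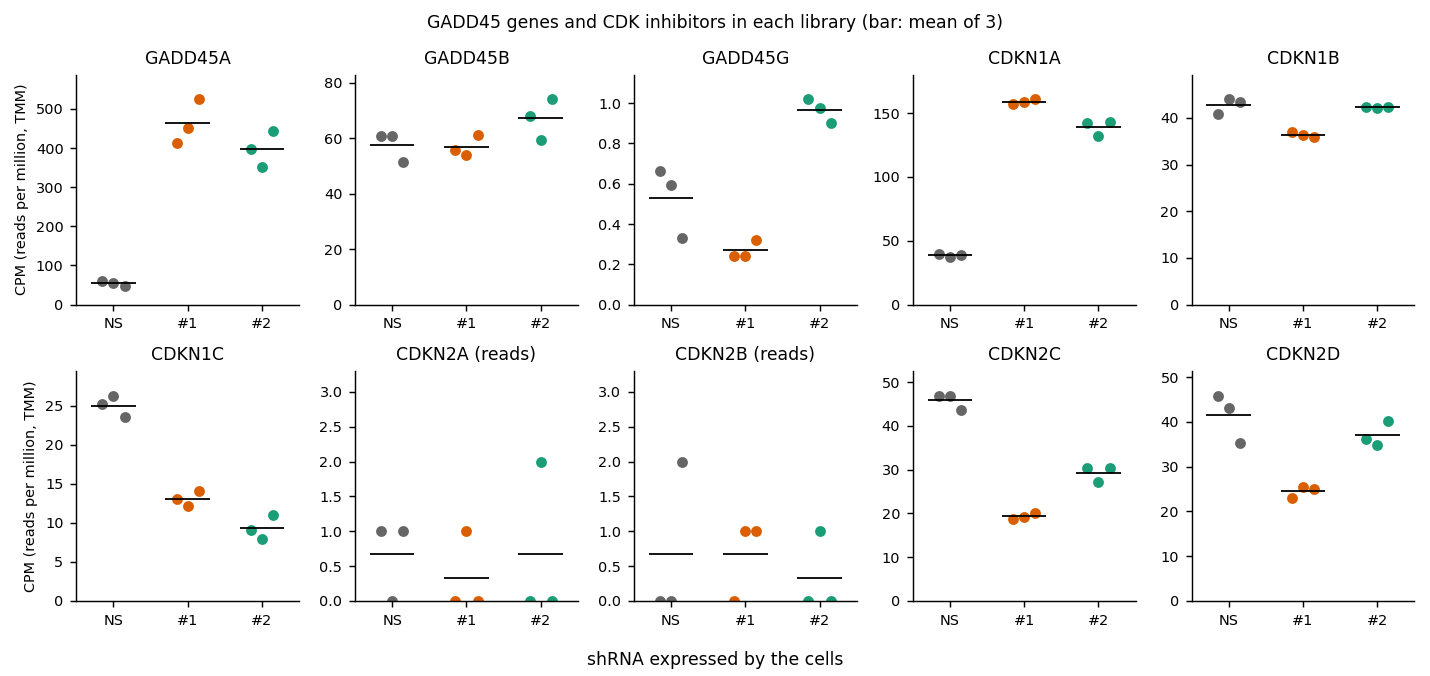
Level of each member in the 9 libraries, as CPM scaled by TMM (vertical axis from 0) or, for CDKN2A and CDKN2B, as reads. Each point is a library, grouped by shRNA, and the bar is the mean of 3. GADD45A goes from 47.8 to 60.8 with NS shRNA to 352 to 525 with the hairpins, while GADD45B stays between 51.4 and 74 in all libraries.

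Of the CIP/KIP genes, CDKN1A, which encodes p21, an inhibitor induced by many stresses (chr6:36676460-36687337, plus strand), was higher with both hairpins. It had 39.7, 37.3 and 39.0 CPM with NS shRNA, 157, 159 and 161 with shRNA #1, and 142, 132 and 143 with shRNA #2. None of the 3 groups overlapped. CDKN1A was 4.09-fold higher with shRNA #1 (log2 fold change 2.03, SE 0.05) and 3.60-fold higher with shRNA #2 (1.85, SE 0.06). It fell by 0.20 on the log2 scale from shRNA #1 to shRNA #2 (log2 ratio -0.20, 95% interval -0.30 to -0.09, adjusted p = 0.00398 from edgeR).

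CDKN1B, which encodes p27 (chr12:12685498-12722369, plus strand), differed little between the groups. It had 40.9, 44 and 43.4 CPM with NS shRNA, 36.9, 36.3 and 36.0 with shRNA #1, and 42.3, 42.1 and 42.4 with shRNA #2. The shRNA #1 libraries lay below all others, and the shRNA #2 libraries lay within the NS shRNA range. This gave log2 fold changes of -0.24 (SE 0.05, shRNA #1) and -0.01 (SE 0.06, shRNA #2), and the log2 ratio between the hairpins was 0.22 (95% interval 0.11 to 0.33, adjusted p = 0.00241 from edgeR).

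CDKN1C, which encodes p57 and is an imprinted gene (chr11:2883213-2885775, minus strand), was lower with both hairpins, against the direction of CDKN1A. It had 25.2, 26.3 and 23.5 CPM with NS shRNA, 13.0, 12.1 and 14.1 with shRNA #1, and 9.05, 7.95 and 11 with shRNA #2. The 3 groups did not overlap. Log2 fold changes were -0.94 (SE 0.08, shRNA #1) and -1.42 (SE 0.11, shRNA #2). From shRNA #1 to shRNA #2 it fell by 0.48 on the log2 scale (log2 ratio -0.48, 95% interval -0.72 to -0.23, adjusted p = 0.00286 from edgeR).

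Of the INK4 genes, CDKN2C, which encodes p18 (chr1:50960745-50974634, plus strand), was lower with both hairpins. It had 46.9, 46.9 and 43.6 CPM with NS shRNA, 18.7, 19.2 and 20.2 with shRNA #1, and 30.3, 27.1 and 30.3 with shRNA #2. The shRNA #2 libraries lay between the other two groups without touching either. Against NS shRNA CDKN2C differed by -1.25 (SE 0.06, shRNA #1) and -0.64 (SE 0.07, shRNA #2) on the log2 scale. CDKN2C was 1.51-fold higher with shRNA #2 than with shRNA #1 (log2 ratio 0.59, 95% interval 0.45 to 0.74, adjusted p = 1.02e-05 from edgeR).

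CDKN2D, which encodes p19 (chr19:10566460-10569059, minus strand), was lower with shRNA #1. It had 45.9, 43.2 and 35.3 CPM with NS shRNA, 23.0, 25.5 and 25.1 with shRNA #1, and 36.2, 34.8 and 40.3 with shRNA #2. The shRNA #2 libraries overlapped those of NS shRNA through NS shRNA replicate 3. In log2 fold change this was -0.76 (SE 0.09, shRNA #1) and -0.15 (SE 0.10, shRNA #2), the latter -0.26 without NS shRNA replicate 3. Between the hairpins the log2 ratio was 0.59 (95% interval 0.38 to 0.80, adjusted p = 0.000216 from edgeR).

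CDKN2A (chr9:21967752-21995301, minus strand), the source of p16 and ARF, had 1, 0 and 1 reads with NS shRNA, 0, 1 and 0 with shRNA #1, and 0, 2 and 0 with shRNA #2. Its neighbour CDKN2B, the source of p15 (chr9:22002903-22009305, minus strand), had 0, 0 and 2, then 0, 1 and 1, then 0, 1 and 0 reads. Both stayed at or under the floor of 3 reads that a count of 0 allows in every library, so no fold is given, and they failed the filter on low values. Low reads ran on through their surroundings. MTAP, the methionine salvage gene next to CDKN2A, and the antisense RNA gene CDKN2B-AS1 each had 1 read over all 9 libraries. DMRTA1, IFNE and IFNB1 had 0 reads, MIR31HG had 2 and ELAVL2 had 3 over all libraries, and KLHL9 had 0 to 4 reads per library. FOCAD, whose midpoint lies 1.168 Mb from the CDKN2A start, was the neighbour that passed the filter, with 76 to 148 reads per library. FOCAD gave -0.38 (limma, adjusted p = 0.114) for shRNA #1 and -0.18 (limma, adjusted p = 0.339) for shRNA #2 on the log2 scale. Reads on genes do not measure copy number, which was not tested.

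**Figure D2:**
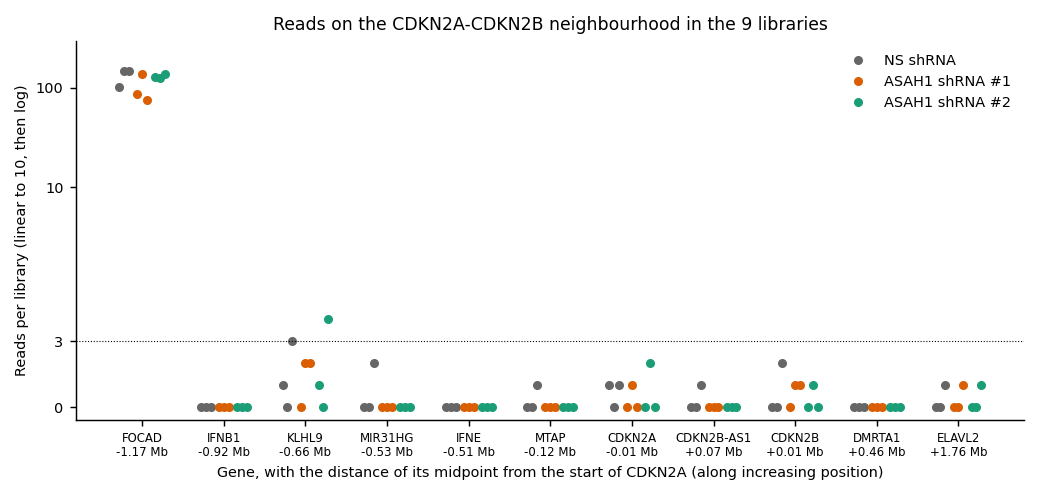
Reads per library (vertical axis, linear to 10 and then logarithmic) on CDKN2A, CDKN2B and 9 neighbouring genes, ordered along chromosome 9, with each gene's distance from the CDKN2A start in Mb. Points are libraries coloured by shRNA and the dotted line marks 3 reads. FOCAD has 76 to 148 reads, whereas the other 10 genes have at most 4.

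Among the 8 members that passed the filter, 2 were called higher and 4 lower with shRNA #1 at an adjusted p below 0.05 from limma, where 32.8% of the 14341 genes tested were called higher and 33.3% lower. With shRNA #2, 3 were called higher and 2 lower, where 33.5% of 14250 genes were called higher and 33.4% lower. The call of GADD45G with shRNA #2 ended without NS shRNA replicate 3 or without shRNA #2 replicate 1. These counts rest on the contrast by which the members were proposed and carry no weight as a result. Between the hairpins, 7 of the 8 members passed at an adjusted p below 0.05 from edgeR, 5 higher with shRNA #2 (GADD45B, GADD45G, CDKN1B, CDKN2C and CDKN2D) and 2 lower (CDKN1A and CDKN1C). Over all 14381 genes tested, 31.4% were higher and 32.5% lower with shRNA #2. The median log2 ratio of the 8 was 0.23, beside -0.005 over all genes.

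**Figure D3:**
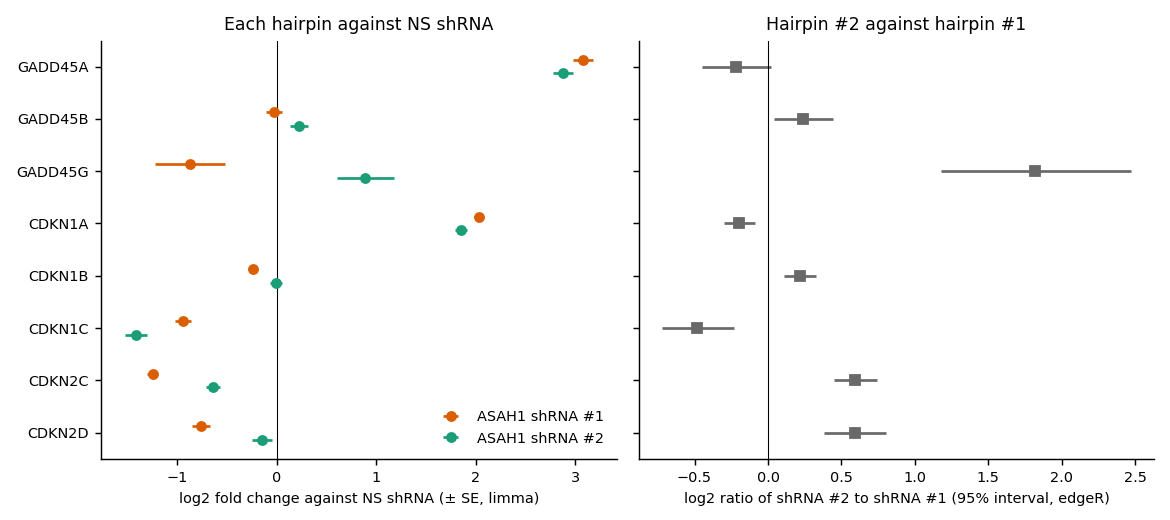
Left, log2 fold change of 8 members against NS shRNA (horizontal axis) with SE, for each hairpin. Right, log2 ratio of shRNA #2 to shRNA #1 with its 95% interval. GADD45A and CDKN1A sit at 1.85 to 3.08 on the left, CDKN1C and CDKN2C sit below 0 with both hairpins, and GADD45G has the highest ratio on the right, 1.82.

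Compared per length, as RPKM, the CPM per kilobase of the canonical GENCODE transcript, the order of the members differed between the groups. With NS shRNA, CDKN2C (46.0 ± 1.88), GADD45B (42.0 ± 3.92) and GADD45A (40.3 ± 4.84) led with overlapping ranges (SD, n = 3 each). CDKN2D followed at 29.1 ± 3.85, then CDKN1A (18.2 ± 0.582) and CDKN1B (17.7 ± 0.672), which overlapped, CDKN1C (14.1 ± 0.775) and GADD45G (0.496 ± 0.164). With the hairpins GADD45A stood first, at 343 ± 42.2 with shRNA #1 and 294 ± 33.9 with shRNA #2, and CDKN1A second, at 75.1 ± 0.806 and 65.5 ± 2.83. GADD45B came next in both, at 41.5 ± 2.80 and 48.9 ± 5.36. CDKN2C and CDKN2D followed, at 19.5 ± 0.786 and 17.2 ± 0.938 with shRNA #1 and, with overlapping ranges, at 29.4 ± 1.86 and 26.0 ± 2.01 with shRNA #2. CDKN1B had 15.1 ± 0.190 and 17.5 ± 0.0691, CDKN1C 7.38 ± 0.565 and 5.27 ± 0.877, and GADD45G 0.252 ± 0.0422 and 0.905 ± 0.0528. Per base of all annotated exons GADD45A stood first in every group, also with NS shRNA, where CDKN2D came second. CDKN1A kept the second place with both hairpins, and the order of the other members by mean was not the same.

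Summed per family on this scale, GADD45 transcripts went from 82.8 ± 8.64 with NS shRNA to 384 ± 44.6 with shRNA #1 and 344 ± 39.2 with shRNA #2 (SD, n = 3 each). GADD45A made up 48.6% ± 1.39 of that sum with NS shRNA, 89.1% ± 0.757 with shRNA #1 and 85.5% ± 0.167 with shRNA #2. The CIP/KIP sum went from 50.1 ± 0.504 to 97.6 ± 1.09 and 88.3 ± 3.66, and CDKN1A from 36.4% ± 1.49 of it to 77.0% ± 0.382 and 74.2% ± 0.451. The INK4 sum went the other way, from 75.2 ± 5.67 to 36.7 ± 1.56 and 55.5 ± 3.52, and CDKN2C from 61.4% ± 2.28 of it to 53% ± 1.09 and 53% ± 1.40, with CDKN2D as nearly all of the rest. Per base of all annotated exons CDKN2D stood above CDKN2C in every group, and GADD45A above GADD45B with NS shRNA. On that length CDKN1C stood above CDKN1B with NS shRNA and shRNA #1. The sums of all families, and the order and shares within them, thus depend on the length used. These sums describe the same member levels and were not tested.

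**Figure D4:**
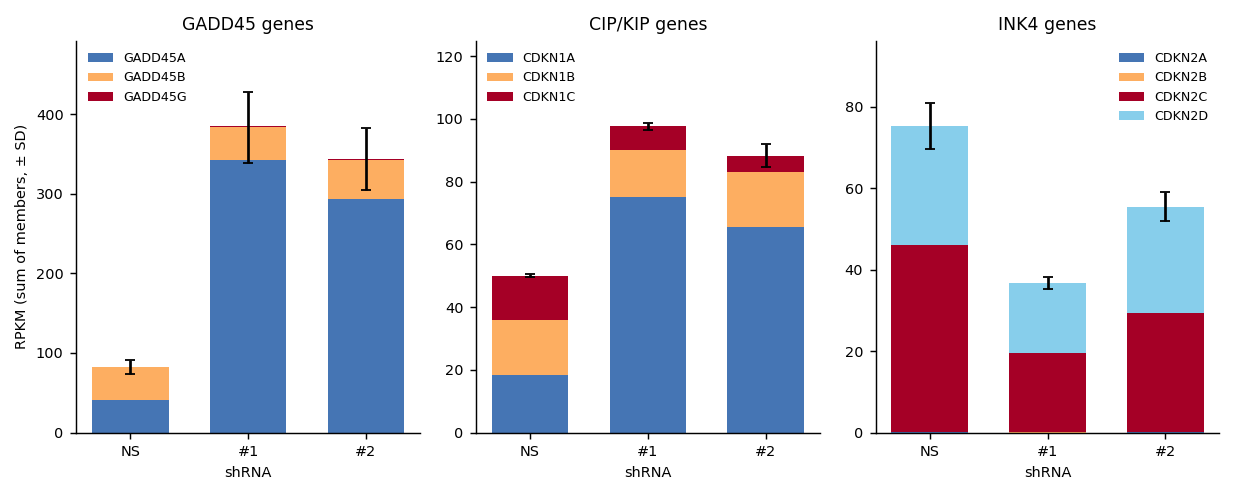
Level per family in each group, as stacked bars of the members' mean RPKM (vertical axis from 0), with the SD of the family sum over 3 libraries. GADD45A fills 48.6% of the GADD45 bar with NS shRNA and 85.5% or more with the hairpins, and the INK4 bar is lowest with shRNA #1, at 36.7.

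The genes whose pattern over the 9 libraries was most like that of GADD45A, by the root mean square difference of log2 CPM centred on NS shRNA among 14380 genes, were CHAC1 (0.19), CTH (0.27), PPP1R15A (0.27), PSG11 (0.28) and RPA4 (0.32). RPA4 and PSG11 were scarce, with a mean of 0.157 and 0.584 CPM with NS shRNA. For CDKN1A they were CEBPG (0.07), UPP1 (0.11), SNHG15 (0.15), SNHG1 (0.15) and NR1D1 (0.16). CEBPG went from 44.9 CPM with NS shRNA to 194 with shRNA #1 and 163 with shRNA #2.

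The partners and effectors of GADD45 proteins, 13 genes that were all tested, did not move one way. With shRNA #1, 3 rose and 7 fell (median log2 fold change -0.19), and with shRNA #2, 4 rose and 5 fell (median -0.08), where the median over all genes was 0.001 and 0.013. These counts, and those of the lists that follow, stand beside 32.8% to 33.5% of all genes called in each direction. The lists were chosen with earlier results of these data known. Genes named by rule from the lists that follow were picked by their change against NS shRNA. The limma p-values of these lists are thus given as a description. MAP3K4, the kinase that GADD45 proteins bind and activate, gave 0.11 (limma, adjusted p = 0.121) for shRNA #1 and -0.08 (limma, adjusted p = 0.325) for shRNA #2. Of the kinases under it, MAP2K3 rose by 0.44 and 0.65 on the log2 scale (adjusted p = 0.00011 and 3.3e-06 from limma). MAP2K6, an activator of p38 like MAP2K3, fell from 82 reads over the 3 NS shRNA libraries to 5 with shRNA #1 (1 to 2 a library). This was a ratio of 0.0618 after scaling, with an exact 95% interval of 0.0195 to 0.15 for counting error only. On log2(normalized count + 1), limma gave -3.38 (adjusted p = 3.76e-05). MAP2K6 passed the filter there through NS shRNA, with a normalized mean of 26.6 beside 1.62 with shRNA #1. With shRNA #2 its log2 fold change was -1.51 (adjusted p = 0.000981 from limma). In that comparison too MAP2K6 passed the filter through NS shRNA, with a normalized mean of 28.8 beside 9.32 with shRNA #2. These kinases of one step thus had changes of opposite sign, of which that of MAP2K6 rests on few reads. MAP2K4 rose with shRNA #2 (0.38, adjusted p = 0.000197 from limma) and gave -0.00 with shRNA #1 (adjusted p = 0.992), and MAP2K7 passed with neither (0.15 and -0.14). MAPK8, which encodes JNK1, rose by 0.74 and 0.18 (adjusted p = 1.71e-06 and 0.0208 from limma). MAPK9 fell by 0.45 with shRNA #1 and gave -0.03 with shRNA #2. Of the p38 genes, MAPK11 fell by 0.87 and 1.04, and MAPK14 fell by 0.19 with shRNA #1 and gave 0.12 with shRNA #2.

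PCNA, the replication clamp bound by GADD45 proteins and by p21, went from 303 ± 16.2 CPM with NS shRNA to 152 ± 10.2 with shRNA #1 and 256 ± 12.8 with shRNA #2 (SD, n = 3 each). Its log2 fold change was -1.0 and -0.24 (adjusted p = 6.83e-07 and 0.00455 from limma), and the hairpins differed by 0.75 (adjusted p = 1.11e-06 from edgeR). CDK1 fell by 0.20 and 0.65 and CCNB1 by 0.27 and 0.65, both lower with shRNA #2 than with shRNA #1 (log2 ratio -0.46 and -0.40, adjusted p = 2.7e-05 and 0.000183 from edgeR). TDG, a DNA glycosylase that works with GADD45A in DNA demethylation, rose by 0.44 and 0.74.

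Of 20 genes for cyclins, CDKs, retinoblastoma proteins and E2F factors, 7 rose and 10 fell with shRNA #1 (median -0.18) and 8 rose and 5 fell with shRNA #2 (median 0.07). CDK6 and CDK4, the kinases that INK4 proteins bind, both rose. CDK6 went from 44.3 ± 3.72 CPM to 138 ± 10.5 and 130 ± 10.0 (SD, n = 3 each, log2 fold change 1.63 and 1.56), and CDK4 rose by 0.58 and 0.47. CCND2, for cyclin D2, had a log2 fold change of 2.20 and 3.73 from 7 to 10 reads per library with NS shRNA, and E2F3 rose by 0.60 and 0.84. CCND2, counted among the genes that rose, passed the filter through the hairpin groups. Its normalized mean was 39.9 with shRNA #1 beside 7.81 with NS shRNA, and 124 with shRNA #2 beside 8.44. Of the genes that fell with both hairpins, the mitotic cyclin gene CCNB2 fell by 0.63 and 0.91, CCNA2 by 0.62 and 0.60 and RBL2, for the pocket protein p130, by 0.70 and 0.77. CCNA1, an A-type cyclin gene named after its values were seen, rose by 1.55 with shRNA #1 (adjusted p = 6.98e-05 from limma) and gave 0.34 with shRNA #2 (adjusted p = 0.153).

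Of 13 genes for the turnover of CDK inhibitor proteins, 3 rose and 6 fell with shRNA #1 (median -0.16) and 3 rose and 5 fell with shRNA #2 (median 0.08). SKP2, the F-box protein that marks p27 for degradation, went from 36.6 ± 2.60 CPM to 9.95 ± 0.384 with shRNA #1 and 24.0 ± 1.19 with shRNA #2 (SD, n = 3 each). Its log2 fold change was -1.88 and -0.60 (adjusted p = 6.69e-08 and 5.6e-05 from limma), and the hairpins differed by 1.27 (adjusted p = 7.08e-08 from edgeR). RNF123, a ubiquitin ligase subunit for p27, fell by 0.23 and 0.52, and RBX1, the RING subunit of cullin ligases, by 0.45 and 0.24. CUL4A rose by 0.12 and 0.50, and CDC20, the mitotic activator of the anaphase-promoting complex, rose by 0.31 and 0.49. The 3 that rose with shRNA #1 became 1 without NS shRNA replicate 1, NS shRNA replicate 2, shRNA #1 replicate 1 or shRNA #1 replicate 2, and with the replicate number as a block.

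Of 29 transcription regulators known to act on GADD45 or CDK inhibitor genes, 15 rose and 7 fell with shRNA #1 and 16 rose and 5 fell with shRNA #2, with a median of 0.32 in both. ATF3, a stress-induced factor, went from 7.11 ± 1.07 CPM to 82.2 ± 0.845 with shRNA #1 and 34.6 ± 1.60 with shRNA #2 (SD, n = 3 each, log2 fold change 3.53 and 2.29). DDIT3, for CHOP, rose by 2.47 and 1.16, EGR1 by 2.82 and 0.80 and KLF4, an activator of CDKN1A, by 1.34 and 1.20. ATF3, DDIT3 and EGR1 were higher with shRNA #1 than with shRNA #2 (log2 ratio -1.25, -1.32 and -2.04, adjusted p = 1.32e-07, 1.55e-08 and 1.86e-08 from edgeR). TP63 fell by 1.19 and 1.71 from 40 to 53 reads per library with NS shRNA, CBX7, for a Polycomb protein, by 0.61 and 0.45 and FOXO4 by 0.56 and 0.36.

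Of 20 proliferation genes, 2 rose and 15 fell with shRNA #1 (median -0.35) and 3 rose and 12 fell with shRNA #2 (median -0.32). MCM5, for a subunit of the replicative helicase, fell by 1.20 and 0.83, and PLK1, for a mitotic kinase, by 0.48 and 1.05. Against them CDC6, a replication licensing gene, rose by 0.13 and 0.90 (adjusted p = 0.0489 and 2.07e-07 from limma). The 2 that rose with shRNA #1 became 1 without NS shRNA replicate 1, 2 or 3 or shRNA #1 replicate 2 or 3. Between the hairpins 10 of the 20 were higher and 6 lower with shRNA #2, with MCM2, MCM3, MCM4, MCM5, MCM6 and MCM7 among the higher and PLK1, AURKA, AURKB and CCNB1 among the lower. Of the other lists, the 13 GADD45 partners gave 7 higher and 5 lower between the hairpins, the 20 cyclin and CDK genes 7 and 4, the 13 turnover genes 9 and 2, and the 29 regulators 8 and 13, beside 31.4% of all genes higher and 32.5% lower. PCNA, CDK1, CCNB1, CCNA2 and CDC20 each stand in more than 1 list.

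**Figure D5:**
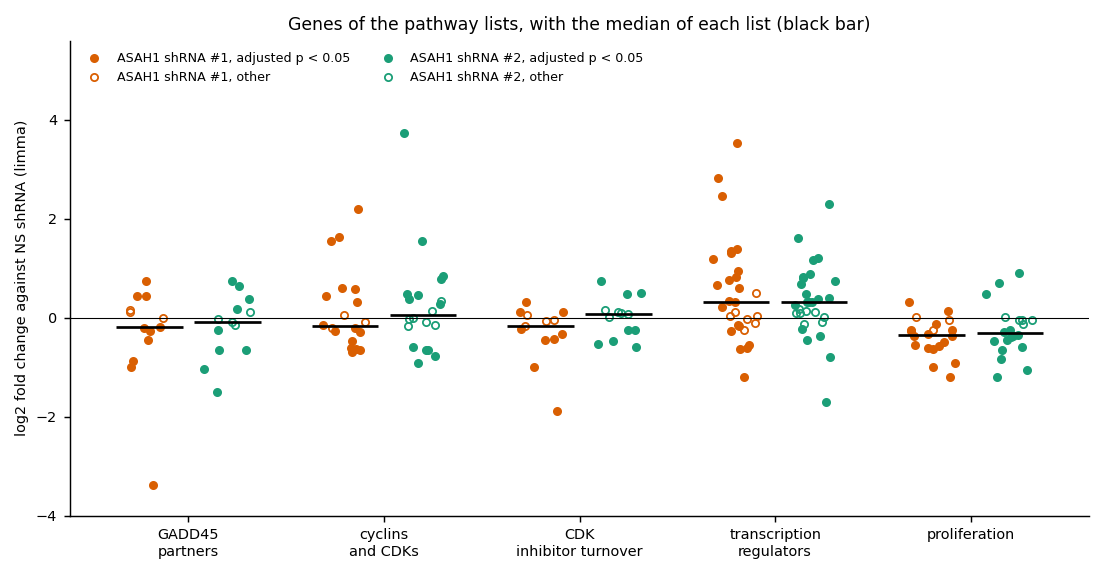
Log2 fold change against NS shRNA (vertical axis) of every tested gene in 5 lists, for shRNA #1 and shRNA #2, with filled points for an adjusted p below 0.05 and a black bar at the median. The lowest point, MAP2K6 with shRNA #1, rests on 1 to 2 reads a library. The list medians run from -0.35 for proliferation to 0.32 for transcription regulators.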

How the data were processed

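RNA from 9 MDA-MB-231 libraries was sequenced. Per the labels and the methods, the authors used Trimmomatic 0.36 for trimming, STAR 2.7.1a for alignment to hg38, HTSeq for reverse-strand counts on UCSC genes and DESeq2 1.28 for size factors, with 1 run per hairpin that included the NS shRNA group. A further methods paragraph names Bowtie2, RSEM and edgeR. The labels give both ribosomal RNA depletion and oligo-dT beads. The deposited normalized signal of every library equalled whole reads over a single size factor (100% of values within 0.01), and those reads were recovered. The authors' own columns of fold changes, p-values and mean signal were not used. Columns without a library numbered 0. In one of the tables, dates had replaced 28 symbols, which were taken from the other.

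Each hairpin was compared with NS shRNA by limma 3.58.1 (R 4.3.3) with an intensity trend on log2(normalized count + 1), where the mean of the 6 libraries reached 10. The hairpins were compared by edgeR 4.0.16 (quasi-likelihood, TMM) on the reads of all 9 libraries. Tests were two-sided with Benjamini-Hochberg adjustment at 0.05 over all genes tested. They were checked on simulated counts in which far fewer genes changed than were called here. That check therefore does not cover scaling when many genes change. Intervals are 95%, and those of the hairpin ratios include the spread between libraries. The exact MAP2K6 interval and the floors of 3 reads are for counting error only. Depth limits GADD45G, CDKN2A and CDKN2B most. The chi-square per gene between replicates was 5.2 to 23.05, and no libraries were duplicates.

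The members and lists were chosen with earlier results of these data known. The text names every member, GADD45 partner and INK4 neighbour, in each other list up to 4 genes per direction with the largest mean change among those called in the same direction with both hairpins, and the 5 genes nearest in pattern to each member whose change was at least 1 in size with both. Genes given only in counts or as examples of hairpin differences (MCM2 to MCM7, AURKA and AURKB) were named after their values were seen. One item within this rule, and a list built on it, are left out of the text. Positions come from GENCODE v44 on hg38, upstream sequences from RefSeq on GRCh38.p14. Alternatives were other pseudocounts, filters and scalings, limma without trend or on all 9 libraries, edgeR and DESeq2 1.42.0, a replicate block, and each library left out. Plots were drawn with matplotlib 3.10.9 (Python 3.11.15, pandas 2.3.3).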

Additional observations from a re-analysis of the deposited data

Results flagged for a closer look

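Of the 8 members tested, 7 differed between the hairpins by the edgeR test of shRNA #2 against shRNA #1 itself, where 31.4% of all genes tested were higher and 32.5% lower with shRNA #2. The log2 ratios were 1.82 for GADD45G, 0.59 for CDKN2C, 0.59 for CDKN2D, 0.24 for GADD45B, 0.22 for CDKN1B, -0.20 for CDKN1A and -0.48 for CDKN1C. The GADD45B call was lost under upper quartile scaling, under the replicate block and in 4 of the 6 fits without a hairpin library. ASAH1 itself was lower with shRNA #2 (-0.89). CDKN1C was farther from NS shRNA with shRNA #2, whereas CDKN1A, CDKN1B, CDKN2C and CDKN2D were farther from it with shRNA #1. With 3 libraries a group, no library was tested as standing apart.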

How the results depend on the processing

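Genes called at an adjusted p below 0.05 numbered 9479 for shRNA #1, 9538 for shRNA #2 and 9188 between the hairpins, 8391 to 9491, 8603 to 9295 and 8169 to 9342 with a library left out, and 8237 to 9788, 8526 to 9831 and 8243 to 9519 under the other alternatives. Upper quartile scaling moved the share of calls that were higher with shRNA #2 than with shRNA #1 from 49.1% to 40.6%. Of 389 member values under alternatives, 364 kept their direction and call. Signs turned for GADD45B with shRNA #1, to 0.011 without NS shRNA replicate 1, 0.013 without NS shRNA replicate 2 and 0.011 without shRNA #1 replicate 2, and for CDKN1B with shRNA #2, to 0.010 without NS shRNA replicate 2 and 0.0028 without NS shRNA replicate 3. The cause was not tested. Leaving a library out gave -0.10 to 0.013 for the former and -0.045 to 0.010 for the latter. For GADD45G with shRNA #2, leaving out NS shRNA replicate 3 (0.60) or shRNA #2 replicate 1 ended the call, and with shRNA #1 its value of -0.87 ran from -1.15 to -0.67 over the alternatives. GADD45G with shRNA #1 lay at the threshold (adjusted p = 0.0511 from limma in the main fit), and a call appeared under 5 alternatives. For CDKN2D with shRNA #2, a call appeared without NS shRNA replicate 3, and for GADD45B with shRNA #2 under 3 alternatives. These member calls against NS shRNA rest on the contrast by which the members were proposed and carry no weight as a result. The regulators higher with shRNA #2 than with shRNA #1 went from 8 to 4 under upper quartile scaling, and proliferation genes that rose with shRNA #1 from 2 to 1 under 9 alternatives.

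The deviations of same-numbered replicates had correlations of -0.301 to 0.202 over 9 pairs. Between NS shRNA and a hairpin they were negative, from -0.301 to -0.0919. Between the hairpins they were positive, at 0.0648, 0.0949 and 0.202. With the replicate number as a block, 8237, 8526 and 8590 genes were called, the hairpin difference of GADD45B (0.24) lost its call (adjusted p = 0.0619 from edgeR), and no other member call changed. The turnover genes and the proliferation genes that rose with shRNA #1 both became 1 under the block, from 3 and 2. Depth limits GADD45G, which a filter at a mean of 50 removed, and CDKN2A and CDKN2B.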
